A study of Mus musculus with 4 samples.

Results

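Signals of intergenic noncoding RNA regions were examined in primary chondrocytes on a 1-colour Agilent mouse expression array. A probe was taken as a member when the array design named its target by a genomic range followed by F or R, in place of an accession. This rule gave 4607 regions carried by 16181 probes, which was 27.3% of the 59305 transcript spots. The whole array held 37881 differently named transcripts and regions. The chondrocytes came from 6-day-old mice on a C57BL/6J background, either Rela fl/fl, in which the Rela gene carries loxP sites on both alleles, or Prrx1-Cre; Rela fl/fl littermates, labelled cKO. Rela is the activating subunit of the transcription factor NF-κB, and the Prrx1 promoter drives Cre in limb mesenchyme, from which limb cartilage arises. Cells of each genotype were kept for 3 days with 10 ng ml−1 TNF, a cytokine that activates NF-κB, or without it. Each of the 4 combinations was measured on 1 array, so no difference below has a replicate check and no test between groups was made.

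Large intergenic noncoding RNAs are transcribed outside protein-coding genes, often spliced and polyadenylated, and many of them stay in the nucleus. Most are present at lower levels than messenger RNAs, and many are restricted to few cell types. In cells that respond to TNF, some noncoding RNAs are switched on together with neighbouring NF-κB target genes. A range in the design holds 1 or more probes, and a probe detects RNA of 1 strand only. The suffixes F and R are read here as the forward and the reverse strand, which the files do not define.

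The labels were checked before the regions. The chondrocyte markers (Col2a1, Acan, Sox9 and others) were well above background on all 4 arrays in 11 of 11 cases. Fibroblast-like cells had 5 of 5 markers so detected, macrophages and leukocytes 4 of 5, endothelial cells 2 of 3 and osteoblasts 1 of 2. Skeletal muscle had 0 of 3 and adipocytes 0 of 2. Detection of the markers therefore does not show that the cultures held chondrocytes alone. Of 28 genes known to respond to TNF, 15 rose at least 2-fold with TNF under the Rela fl/fl label and 8 under the cKO label. The Rela probe was not lower where the label was cKO. Its log2 signal was 5.09 untreated and 5.33 with TNF there, against 4.82 and 5.12 for Rela fl/fl. Whether this probe lies in the part that Cre removes is not given in the sources used here, so it does not check the label. The probe for Xist, the RNA of the inactive X chromosome, read −0.27 and −0.36 for Rela fl/fl but −6.99 and −7.16 for cKO, so the cells under the 2 labels differed in more than Rela. Markers of cartilage and of other cell types moved with the label as well. Of the 11 chondrocyte markers, 2 were at least 2-fold lower for cKO in untreated and 1 in treated cells, with Matn1, a cartilage matrix protein, lower by 1.85 and 1.18 on the log2 scale. The brighter probe of Ibsp, a bone matrix protein, differed by 1.14 and 0.97 towards cKO. Both adipocyte markers differed the other way, Adipoq by −4.18 and −2.29 and Plin1 by −2.07 and −1.47, with dim values left as read. For cKO, Plin1 read −6.09 and −6.08 and Adipoq −6.24 in untreated cells. The lowest signals flagged as above background on those arrays were −4.81 untreated and −5.08 treated. These adipocyte values and those of Xist for cKO lay below them, so the sizes of these differences are uncertain. Of the 28 genes of the TNF response, 3 were at least 2-fold lower and 2 higher for cKO in untreated cells, with a median difference of −0.11. Among treated cells 11 were lower and 2 higher, with Saa3, an acute-phase protein, at 3.34 for Rela fl/fl and −5.93 for cKO. The cKO value of Saa3 also lay below the lowest signal flagged as above background. Whether labels were exchanged, whether the animals differed in sex and what part these markers have in the results was not tested. Some spots exceeded the same spot of all other arrays at least 2-fold, and many of these were grouped in patches of the slide. The patches held 10.7% of the region spots on the untreated Rela fl/fl array and 7.37% on the treated one. For cKO they held 9.67% on the untreated array and 0.902% on the treated one. The counts of regions called in each comparison are therefore given with all spots and with patches left out. The counts by signal band and by single array below were made with patches left out alone.

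The 4607 regions comprised 2318 with the suffix F and 2289 with R, on 20 chromosomes, with 352 on chromosome 1 and 99 on chromosome 19. Their lengths ran from 62 bases to 7128487 bases with a median of 10676, in the coordinates of the mouse build mm9 that the file headers name. A single probe represented 690 regions, and 3917 had 2 or more, up to 10. Ranges overlapped on the same strand for 2104 regions, so members were not all independent transcripts. Both strands of an identical range were probed at 1067 of 3540 positions.

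The regions were seen less often than messenger RNAs. Of 16159 region probes without an outlier flag, 4618 or 28.6% were well above background on all 4 arrays (95% Wilson interval of counting 27.9 to 29.3). For probes of mRNA accessions this share was 64.7%, and for the remaining transcripts 39.5%. No array detected 49.1% of the region probes, against 24.4% of the mRNA probes. On single arrays the share of region probes above background was 32.1% for untreated and 37.0% for treated Rela fl/fl cells, and 41.7% and 42.1% for cKO. The order of these shares followed the detection floor, the lowest signal flagged as above background, which fell from −4.25 and −4.77 to −4.81 and −5.08 in the same order of arrays. Its part in the shares was not tested. Signals here are log2 intensities relative to the array's 75th percentile over transcript spots.

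**Figure D1:**
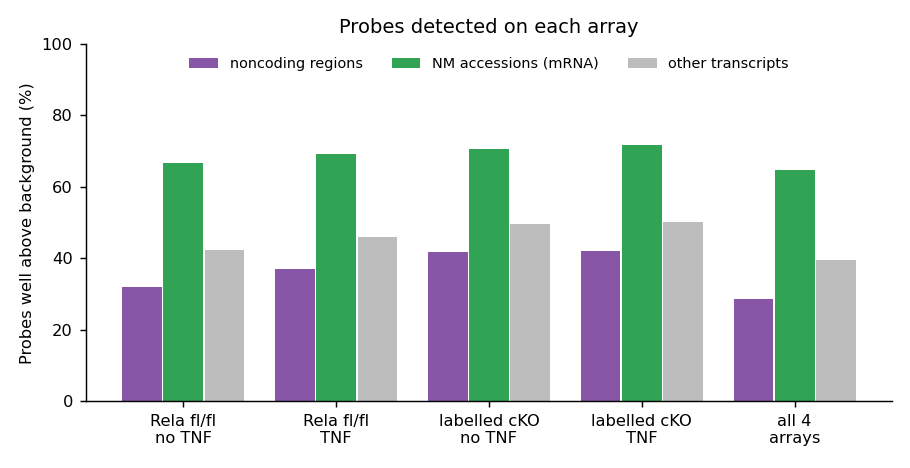
Share of probes flagged well above background (vertical axis, percent) on each array and on all 4 together, for probes of the noncoding regions, of mRNA accessions and of other transcripts. On all 4 arrays together 28.6% of the region probes were above background, against 64.7% of the mRNA probes.

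Detection by length was 22.4% of probes in regions under 1 kb, 29.6% from 1 to 10 kb, 30.1% from 10 to 100 kb and 25.8% in longer ones. The suffixes F and R gave 28.4% and 28.8%. Among chromosomes the share ran from 20.5% on chromosome 9 to 36.4% on chromosome 17. Among the 3917 regions with 2 or more probes, all probes were above background on all 4 arrays in 375, or 9.57%. Some but not all of the probes were so in 1804 regions, and no probe was above background on any array in 663. Probes that only 1 array detected were often in its patches, except on the treated cKO array. This was so for 264 of 310 such region probes of the untreated Rela fl/fl array and 213 of 310 of the treated one. For cKO it was so for 306 of 612 untreated and 26 of 630 treated. Over all probes of the array the shares were 86.3%, 67.8%, 51.7% and 4.36% in that order, close to those of the regions.

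The signal of each of the 10 brightest regions with 2 or more probes, all detected on all 4 arrays, varied by at most 0.613 between the 4 arrays. Among the 375 fully detected regions the median signal was −1.20, and 104 lay above the 75th percentile of their array (a signal over 0). Different probes of a region differed by a median SD of 0.70, so signals of different probes give no exact order of RNA abundance. Among them the highest mean signal belonged to chr19:5801802-5802597_R, a range of 796 bases whose 3 probes averaged 7.09 in untreated and 7.08 in treated Rela fl/fl cells, and 7.37 and 7.22 for cKO. Its neighbour 1245 bases away, chr19:5798135-5800557_R, read 4.77, 4.76, 5.18 and 5.07 in that order. The region chr17:17481706-17482457_R stayed between 6.91 and 7.06. Of these 10 brightest regions, chr19:56820850-56837925_R varied most between arrays, at 5.70, 6.22, 5.60 and 5.93, a range of 0.61 with 2 probes. It was higher with TNF by 0.51 ± 0.12 for Rela fl/fl and by 0.33 ± 0.02 for cKO, both short of 2-fold.

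**Figure D2:**
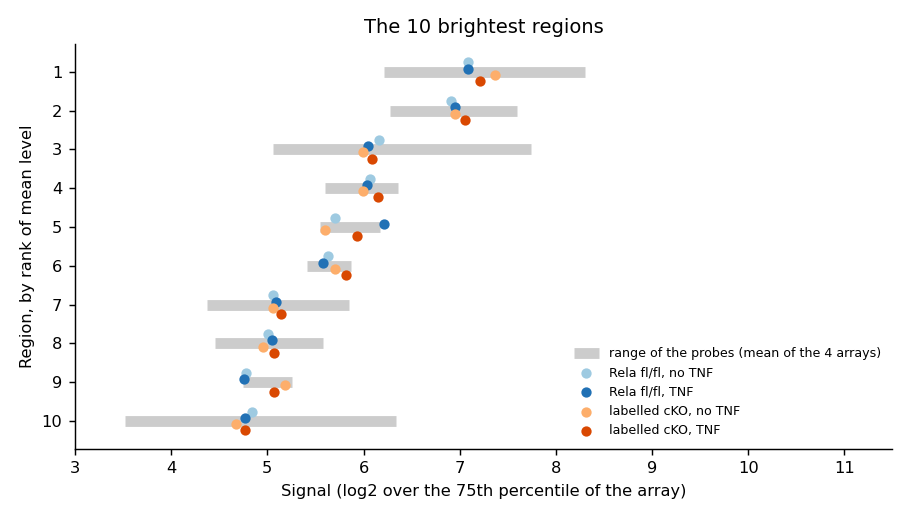
Signal of the 10 brightest fully detected regions with 2 or more probes (horizontal axis, log2 over the 75th percentile of the array), 1 row per region by rank. Points are the mean over the probes of a region on each array and grey bars the range of its probes. The 4 arrays lie within 0.613 of each other in every region, while its probes spread more widely.

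A cluster of bright ranges lay on chromosome 17, inside chr17:39960567-39992817. It held 6 regions, all of whose probes were above background on all 4 arrays. On the forward strand chr17:39982023-39983277_F and chr17:39983902-39985688_F averaged 6.07 and 6.06. The reverse strand of the whole range read 4.37, and chr17:39980973-39981876_R, the dimmest of the cluster, 3.27. The signals of the 2 bright forward regions differed by at most 0.162 between arrays.

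Where both strands of a range were probed, detection was about as often on 1 strand alone as on both. At 1066 positions with usable probes on each strand, at least 1 probe was above background on all 4 arrays on both strands at 432, on F alone at 232, on R alone at 221 and on neither at 181. A stricter reading asked that every probe of 1 strand, and none of the other, be above background on all 4 arrays. It was met at 41 of 878 positions with 2 or more probes per strand, 21 for F and 20 for R. The 5 positions with the widest gap in mean signal between strands were chosen on signal, and none of them was among those 41. At chr10:97196521-97207471 the F probe read 3.93 and the R probe −6.63, with 1 probe each, and of these 5 it was the position where 1 strand had no probe above background on all 4 arrays. At chr4:136856064-136877219 the 5 R probes averaged 4.59 and the 5 F probes −3.89, although 3 of the latter were above background on all 4 arrays. At chr11:35805295-35817263 the single F and R probes read 5.13 and −3.79. At chr18:23922600-23937275, 2 F probes averaged 3.65 and 3 R probes −4.75. At chr11:22681800-22707775, 1 R probe read 7.91 and 2 F probes −0.45. Because each strand had its own probes, a gap of this kind mixes RNA level with the binding of the probe.

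Differences between arrays were taken for regions with 2 or more counted probes. A probe counted when either array of the pair had it above background, and a dim value was raised to the detection floor of its array, which understates a difference towards the array where the probe was seen. Because the floors differ between arrays, a raised value could also lie above the detected one, which gives the difference a sign that detection does not bear out. Counts are therefore also given with such probes, called floor conflicts here, left out, an alternative added after the values had been seen. A region was called when its counted probes all had the same sign and their mean log2 difference reached 1, a 2-fold change. The background is the share of all transcripts and regions with 2 or more probes that met the same rule. SDs below are over the probes of a region, not over samples. Probes spotted repeatedly on the same array gave an SD of 0.138 for a difference between 2 arrays, which covers spotting alone.

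TNF in Rela fl/fl cells called few regions once patches were left out. With all spots, 38 of 1653 regions were higher (2.30%, background 1.29%) and 78 were lower (4.72%, background 2.27%). The 10 largest in each direction all had a probe in a patch of their brighter array, and none kept 2 probes outside the patches. The largest rise, chr15:100905367-100905654_R, went from −4.00 to −0.08 with both probes in a patch, and the largest fall, chr5:77227402-77229990_R, from −0.90 to the floor of −4.77 likewise. With patches left out, 2 of 1230 regions were higher (0.163%, background 0.189%) and 5 lower (0.407%, background 0.162%). Leaving out floor conflicts as well gave 2 higher (background 0.199%) and 3 lower (background 0.114%) of 1113 regions. The median difference of the 1230 regions was −0.01, with 90% of them between −0.39 and 0.31.

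With TNF, all probes rose at least 2-fold for Rela fl/fl at chr18:5162836-5165729_R, a range of 3 probes. Its mean signal was −3.22 without TNF and −1.48 with it in Rela fl/fl cells, a difference of 1.74 ± 0.33 (SD over 3 probes). For cKO the same 3 probes averaged −4.00 and −2.93, a difference of 1.07 ± 0.21 with all spots and of 1.19 ± 0.06 over the 2 probes outside patches. All 3 probes were above background on every array except that labelled cKO without TNF, where 2 were. The region was the 1 called higher in both genotypes, of 1515 tested in both with all spots (background 0.0402%) and of 1125 with patches left out (background 0.0316%). The latter background was 1 of 3160 features, which was this region itself. The comparisons of TNF under the 2 labels share no array. In the presence of TNF it was lower by 1.45 ± 0.38 on the array labelled cKO. The longer range that encloses it, chr18:5119300-5181600_R, moved in the same direction with TNF by 0.75 and 0.31. The reverse case, lower with TNF in both genotypes, held for 5 of 1515 regions with all spots (background 0.121%) and for 0 of 1125 with patches left out (background 0.0%). Opposite directions in the 2 genotypes held for 2 of 1515 (background 0.0402%), chr13:72906878-72923790_F and chr15:102947390-102971082_R, and for 0 of 1125 (background 0.0%). The 5 regions lower in both were chr11:60728207-60745369_F, chr14:77258025-77278750_F, chr5:122982442-123000053_R, chr6:120670699-120677449_F and chr8:126268510-126290810_R.

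Outside patches, TNF gave 1 other higher call under the Rela fl/fl label, chr19:21653968-21671718_R at −4.21 and −2.88. Its 2 counted probes moved by 0.18 and 2.48, so 1 probe carried the call. Of the 5 called lower outside patches, chr12:110738120-110769295_F and chr10:120116843-120182671_F each owed their second falling probe to a floor conflict and were not called without it. The other 3 rested on 1 strong probe. The 2 counted probes of chr1:138442536-138521080_F moved by −2.31 and −0.12, and those of chr14:99728359-99728958_F by −1.74 and −0.43. Requiring every counted probe to pass the limit left 1 of 1230 regions higher, chr18:5162836-5165729_R (background 0.108%), and 0 lower (background 0.0%). Among the other transcripts the higher count was 3 of 2480, so the regions did not exceed the rest.

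Under the cKO label, TNF gave a lopsided count. With all spots 8 of 2001 regions were higher (0.400%, background 0.263%) and 130 were lower (6.50%, background 2.61%). With patches left out 6 of 1714 were higher (0.350%, background 0.233%) and 47 lower (2.74%, background 1.12%). Without floor conflicts as well it was 6 (background 0.236%) and 47 (background 1.14%) of 1680. Among transcripts other than the regions, 5 and 6 of 3000 were called, or 0.167% and 0.200%. The lower calls were not limited to dim regions. They made up 3.88% of regions with a mean signal below −3, 1.90% between −3 and −1 and 1.05% above that, against 0.725%, 0.590% and 0.0% of the other transcripts in the same bands. The largest mean fall outside patches, chr5:122982442-123000053_R, rested on 1 of its 2 counted probes, which moved by −4.03 and −0.93. The probes moved alike in chr5:111565658-111566257_F, lower by 1.94 ± 0.28 over 3 probes, and chr5:152006587-152008784_R, lower by 1.76 ± 0.16 over 3 probes. At chr17:3346621-3347209_F, 2 probes went from 0.60 to −1.01. Among the rises was chr4:88745770-88774130_R, where 3 probes went from −4.02 to −2.84.

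The comparison of cKO with Rela fl/fl in untreated cells shares the untreated cKO array with the one above. With all spots 70 of 1864 regions were higher on it (3.76%, background 1.73%) and 66 were lower (3.54%, background 1.81%). With patches left out 30 of 1354 were higher (2.22%, background 0.958%) and 4 were lower (0.295%, background 0.319%). Without floor conflicts as well, 31 of 1179 were higher (background 1.05%) and 3 lower (background 0.313%). Of the other transcripts, 6 and 8 of 2404 were called, or 0.250% and 0.333%. Outside patches the largest difference was at chr13:108653722-108654406_R, at −3.87 for Rela fl/fl and −1.88 for cKO over 2 probes, 1.99 ± 0.09. There chr17:3346621-3347209_F followed at −1.35 and 0.60, 1.95 ± 0.01 over 2 probes.

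**Figure D3:**
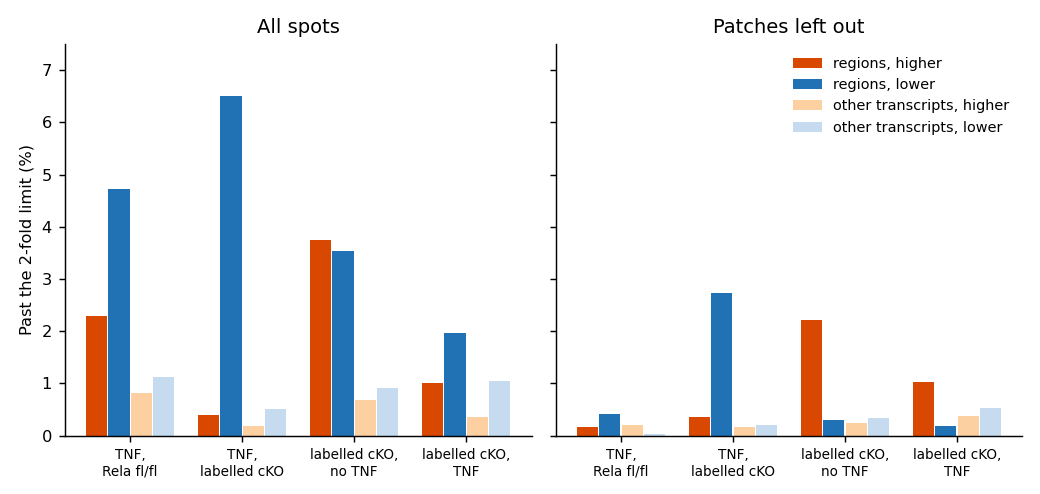
Share of regions and of other transcripts called past the 2-fold limit (vertical axis, percent) in the 4 comparisons, with all spots on the left and with patches left out on the right. With patches left out, 2.74% of the regions were called lower with TNF under the cKO label and 2.22% higher on the untreated cKO array, against 0.200% and 0.250% of the other transcripts.

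Since both of these comparisons rest on the untreated array labelled cKO, regions were also sought that stood apart on 1 array. This count was made after the values had been seen. A region counted when its probes, outside the patches of all arrays, averaged at least 2-fold above the highest of the other 3 arrays, with dim values raised as before. Probes counted when detected on the array in question, so a region could enter through the array where it was high, and the numbers measured differ between arrays. On the untreated array labelled cKO this held for 12 of 1206 regions (0.995%, background 0.4%). It held for 0 of 835 in untreated Rela fl/fl cells (background 0.0%), for 1 of 1052 in treated ones (background 0.13%) and for 1 of 1300 on the array labelled cKO with TNF (background 0.0877%). Restricted to probes above background on all 4 arrays, which gave 810 regions for each array, the counts were 6 on the untreated array labelled cKO, all among the 12, 1 for treated Rela fl/fl cells, chr18:5119300-5181600_R, and 0 on each of the remaining arrays. In the same order the other transcripts gave 1, 3 and, on the remaining arrays, 0 for untreated Rela fl/fl and 1 for treated cKO, of 1884. Those single regions of the wider count were chr18:5162836-5165729_R, described above, and chr14:105988692-105994145_F, at −2.54 against −3.74 or less elsewhere. Among the other transcripts 1 of 2048 stood apart on the untreated array labelled cKO, against 3 of 2028 for treated Rela fl/fl cells. The latter were C3, a complement component, Vcam1, an adhesion molecule of inflamed tissue, and Chl1, a neural adhesion molecule.

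The 12 regions lay on 7 chromosomes, 5 on F and 7 on R, and none on the X chromosome. Their median length was 1774 bases, against 10501 for all regions with 2 or more probes, and 5 of them were shorter than 1 kb. In 6 of them every counted probe was above background on all 4 arrays. The brightest was chr6:31078802-31079644_R. Its 2 counted probes averaged −1.38 and −1.33 for Rela fl/fl, 0.16 for untreated cKO and −1.21 for treated cKO. A neighbour on that strand, chr6:31115515-31168433_R, read −3.14, −3.33, −1.84 and −3.31 over 3 probes. Each of these had 3 nearly equal arrays and 1 that was higher. Other ranges on that strand did not, with dim values not raised. The enclosing chr6:31017987-31174287_R read −5.41, −5.93, −5.45 and −5.99 and chr6:31037606-31037912_R lay between −5.38 and −4.47 and was highest in untreated Rela fl/fl cells, with 0 probes above background on all 4 arrays in either.

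On chromosome 5 the pattern ran through neighbouring ranges of the forward strand. The 3 probes of chr5:111538420-111540142_F averaged −3.85, −3.79, −2.13 and −3.84. At chr5:111565658-111566257_F, 2 probes outside all patches averaged −3.48, −3.54, −2.17 and −4.04. Next to it, chr5:111602486-111603075_F was lower with TNF under the cKO label by 1.11 ± 0.53 over 3 probes, from −3.11 to −4.22. The next range on this strand, chr5:111612191-111652286_F, did not share the pattern, at −3.79, −3.77, −3.74 and −3.64. The ranges on chromosome 1 were mixed. There chr1:139822286-139822985_F averaged −2.89, −2.50, −1.38 and −2.61 over 2 probes. Near it, chr1:139806645-139809498_F and chr1:139856545-139857204_F were lower with TNF under the cKO label by 1.56 ± 0.17 and 1.19 ± 0.16. Between them on that strand, chr1:139847592-139848243_F was highest in treated Rela fl/fl cells, at −5.54, −3.59, −4.19 and −5.10 with dim values not raised. On the same scale chr1:139795171-139796306_F read −4.90, −4.14, −4.03 and −4.64. A longer range over all of these, chr1:139713316-139913366_F, read −5.20, −5.56, −5.42 and −5.59 over 7 probes with dim values not raised, of which 1 was above background on all 4 arrays.

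On chromosome 19 chr19:5834117-5835940_R read −1.52, −1.47, −0.11 and −1.37 over 2 probes outside patches. The bright ranges chr19:5801802-5802597_R and chr19:5798135-5800557_R on the same strand within 50 kb differed between the arrays without TNF by 0.28 and 0.41. The remaining regions of the 12 were chr9:121256738-121257487_F, chr5:152006587-152008784_R, chr14:62280837-62283960_R, chr13:108653722-108654406_R, chr9:13349094-13352732_F and chr13:104591573-104599048_R. Their signal on the untreated array labelled cKO was between −2.71 and −1.38, above the detection floor of every array. The 1 other transcript that stood apart on this array was itself a genomic range, named without a strand suffix, at 12941161 to 12944859 on chromosome 17. Over 3 probes it read −1.91, −2.06, −0.60 and −2.22.

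Named long noncoding RNAs were counted as well, by 1 probe each with all spots and dim values not raised, unlike the regions. Regions are not tied to genes here, so a region may belong to the transcript of 1 of these RNAs. Of 37 in the list, 22 had a probe on the array and 19 were above background on all 4 arrays. With the brightest probe of each, 0 rose at least 2-fold with TNF under either label. Under the Rela fl/fl label 1 fell, Jpx, which was above background on 1 array only and lay in a patch there. Under the cKO label 1 fell, Kcnq1ot1. Between the labels, 1 was at least 2-fold higher and 2 lower for cKO in untreated cells, and 0 higher and 1 lower in treated ones. Malat1, an abundant nuclear RNA, read 2.66, 2.61, 2.85 and 2.63. Neat1, the scaffold of nuclear paraspeckles, read 5.50, 5.46, 5.54 and 5.15. A probe of Kcnq1ot1, the antisense RNA of an imprinted domain, read −2.08, −1.83, −0.67 and −1.99. That probe was thus also highest on the untreated array labelled cKO, while a dimmer Kcnq1ot1 probe, at −0.70, −4.02, −2.98 and −3.73 and in a patch on 1 array, was not.

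**Figure D4:**
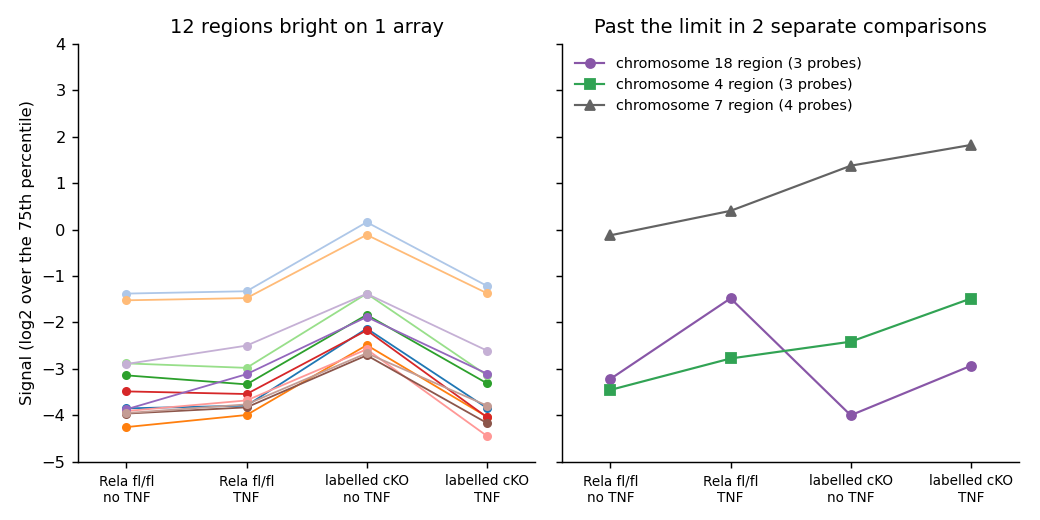
Mean signal (vertical axis, log2 over the 75th percentile) on the 4 arrays, with lines joining the values of a region. Left, the 12 regions at least 2-fold brighter on the untreated array labelled cKO than on each of the others. Right, regions called in comparisons that share no array, of which that on chromosome 18 rose with TNF in both genotypes and those on chromosomes 4 and 7 were higher on both arrays labelled cKO.

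Among treated cells, cKO was set against Rela fl/fl in the same way. With all spots 19 of 1879 were higher on the array labelled cKO (1.01%, background 0.573%) and 37 lower (1.97%, background 1.36%). Outside patches 17 of 1663 were higher (1.02%, background 0.603%) and 3 lower (0.180%, background 0.416%). The counts were 17 (background 0.617%) and 3 (background 0.426%), of 1592, without floor conflicts as well. Of the 37 lower calls, 35 had a probe in a patch of the brighter array, against 4 of the 19 higher ones. Outside patches the largest rise was chr9:78107225-78118850_F, at −0.91 and 0.87 over 2 of its 5 probes, 1.78 ± 0.08. The other 3 probes of that range were not well above background on any array.

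Regions higher on the array labelled cKO both without and with TNF numbered 2 of 1200 with patches left out (background 0.123%), in comparisons that share no array and called 29 and 7 of those regions higher. Lower in both were 0 (background 0.123%), and opposite 0 (background 0.0%). With all spots 1 of 1603 was higher in both (background 0.0781%), the region on chromosome 4 below. There 1 was lower in both (background 0.156%), chr14:26973425-26986650_R, and 1 opposite (background 0.0195%), chr13:72906878-72923790_F. The stronger was chr7:91558475-91733625_F, a range of 6 probes. Its 4 counted probes averaged −0.12 untreated and 0.41 treated for Rela fl/fl, and 1.38 and 1.82 for cKO. These 4 probes differed by 1.45 to 1.55 in untreated cells, and 5 probes by 1.44 ± 0.12 in treated ones, and all counted probes were above background on all 4 arrays. With all spots the call without TNF was lost, because 1 probe lay in a patch on the untreated Rela fl/fl array and moved the other way. The second was chr4:88583425-88584070_R, whose 3 probes averaged −3.45, −2.78, −2.41 and −1.48. It was higher by 1.04 ± 0.11 without TNF and, over 2 probes outside patches, by 1.23 ± 0.15 with it. Its mean was also higher with TNF, by 0.68 for Rela fl/fl and 0.93 for cKO, both under 2-fold. The marker genes given above differ along the same labels. Genotype, the animals and the array cannot be told apart in either case.

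Differences of neighbouring regions were compared. For pairs on the same strand with a gap of at most 50 kb, the differences correlated with Pearson's r = 0.40 over 223 pairs for TNF under the cKO label and with r = 0.39 over 141 pairs for the labels in untreated cells, patches left out. With all spots these were 0.18 and 0.19. For TNF under the Rela fl/fl label r was −0.06 over 93 pairs, and for the labels in treated cells 0.16 over 172 pairs. Pairs share regions and arrays and include overlapping ranges, so these values are a description. Of the regions on the X chromosome, 49 to 63 were measured per comparison with all spots. In the order of the comparisons above (TNF under the Rela fl/fl label, TNF under the cKO label, labels in untreated and in treated cells) 2, 2, 2 and 1 of them were called lower and 0 higher, beside the backgrounds of 2.27%, 2.61%, 1.81% and 1.36% for lower calls. Outside patches 40 to 53 were measured and 0 called, against backgrounds of 0.162%, 1.12%, 0.319% and 0.416%.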

How the data were processed

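RNA of cultured chondrocytes was hybridised to 4 one-colour (Cy3) Agilent arrays, 1 per group. The authors deposited spot intensity tables from Agilent Feature Extraction (version 10.10.1.1, from the submitters' processing notes), whose processed intensity is background-subtracted and detrended within each array, with flags. They also deposited a table of intensity values that equalled the processed intensity times 1 factor per array, 1.77 to 1.83, whose basis is not given in the sources used here. Its column medians were 82.4 (untreated Rela fl/fl), 74.2 (treated Rela fl/fl), 88.5 (untreated cKO) and 69.4 (treated cKO).

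The log2 processed intensity minus the 75th percentile of the transcript spots was used. That percentile was 615, 618, 634 and 589.7 intensity units in the order above. Non-uniform and population outlier spots were left out, which left 16159 probes of 4605 regions. A spot lay in a patch when at least 3 of the other 54 spots in a window of 11 rows and 5 columns were at least 2-fold brighter on that array than on each of the others, values under −4.5 being raised to it. No sample was replicated, so precision is limited by the number of arrays. The Wilson interval covers counting error only. No spot was saturated.

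The members, gene lists and patch rule were chosen with earlier results of these data known. Regions were named as the 10 brightest with 2 or more probes and all of them detected, up to 10 called per direction for TNF in Rela fl/fl cells and up to 5 elsewhere, those called in both comparisons without a shared array, the 5 widest gaps between strands, and neighbours within 50 kb. Regions of the calls with patches left out, and of the count of single arrays, were named after their values had been seen. Alternatives used quantile normalization and normexp (offset 50, on median spot intensity, since no mean is among the columns used) in limma 3.58.1 under R 4.3.3. Other steps used Python 3.11.15, numpy 2.4.6 and pandas 2.3.3. The calling rule was tested on simulated data. Accessions were given symbols through a RefSeq table. No annotation of build mm9 was used, so regions are not tied to genes.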

Additional observations from a re-analysis of the deposited data

Results flagged for a closer look

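The region chr13:72906878-72923790_F went up with TNF under one label and down under the other. Its 2 counted probes rose by 2.78 in Rela fl/fl cells, where both lay in a patch of the array with TNF, and changed by −2.76 on the arrays labelled cKO, where 1 lay in a patch of the array without TNF. This difference was not tested, and with patches left out fewer than 2 probes remained.

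The same region differed between the labels in opposite directions too, by 2.31 in untreated and −3.23 in treated cells. The region chr15:102947390-102971082_R likewise had 1.05 with TNF for Rela fl/fl over 2 probes and −1.35 for cKO over 4. These differences were not tested, and with patches left out neither region was called in opposite directions.

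The genomic range at 12941161 to 12944859 on chromosome 17 carried no strand suffix and so was no member. Its 5 probes were above background on all 4 arrays, with a mean log2 signal of −1.63, against a median of −6.87 for the negative control spots.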

How the results depend on the processing

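No paired analysis was possible because each group had 1 array. Counts are given as higher and lower regions in the order TNF in Rela fl/fl cells, TNF on the arrays labelled cKO, label cKO without TNF and label cKO with TNF. With all spots they were 38 and 78, 8 and 130, 70 and 66, 19 and 37. With patches left out they were 2 and 5, 6 and 47, 30 and 4, 17 and 3. With every counted probe past the limit they were 7 and 13, 1 and 39, 19 and 6, 6 and 7. Both together, an alternative chosen after seeing the data, gave 1 and 0, 3 and 21, 17 and 0, 7 and 1. Probes above background on both arrays gave 12 and 24, 2 and 55, 22 and 19, 7 and 9, and a 1.5-fold limit 63 and 118, 23 and 250, 161 and 106, 52 and 64. Normexp background correction gave 15 and 38, 0 and 26, 19 and 24, 2 and 12, and no filter 21 and 180, 23 and 183, 98 and 97, 43 and 54. Leaving out floor conflicts, chosen after seeing the data, gave 41 and 70, 8 and 129, 85 and 56, 19 and 35 with all spots and 2 and 3, 6 and 47, 31 and 3, 17 and 3 with patches left out.

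The count of regions that TNF raised under the cKO label became 15 under quantile normalization and 2 without scaling and in the authors' value table. The count lowered there went from 130 to 89 under quantile normalization, 180 without scaling and 183 in the authors' value table. Among the scalings and background corrections, the split of higher and lower calls moved by over 10 percentage points from 38 and 78 to 44 and 55 (TNF in Rela fl/fl cells) and from 70 and 66 to 59 and 86 (label without TNF) under quantile normalization, and from 19 and 37 to 14 and 55 (label with TNF) without scaling, to 14 and 54 in the authors' table and to 2 and 12 under normexp. Other settings moved it further. With no filter the higher share for TNF in Rela fl/fl cells went from 32.8% to 10.4%. For the label without TNF it went from 51.5% to 76.0% with every probe past the limit and to 88.2% with patches left out. Both together gave 100% there. For the label with TNF it went from 33.9% to 85.0% with patches left out, as lower calls went from 37 to 3 and higher calls from 19 to 17. Leaving out scaling moved the median of all features with TNF on the arrays labelled cKO from 0.02 to −0.08. The cause was not tested. The share of probes detected on all 4 arrays was 28.5% with patches left out and 53.0% with the laxer flag for a signal above background. Of 1093 alternative values for named regions, 809 moved by less than the spotting SD, 284 by more, and none of the called ones changed sign. Dim probes near the floor limit all counts.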
